A study of Mus musculus with 6 samples.

Results

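Interferon-stimulated genes outside the Ifit, Oas, Pyhin and Slfn families were followed in leukocytes of the irradiated mouse heart. The list was made of antiviral effectors and RNA or DNA sensors and held 34 genes, taken by symbol. The list was drawn up with earlier results of these data known, so it is not independent of them. Of these, 32 matched 1 row each among the 32285 genes of the deposited matrices. The other 2, the GTPase genes Mx1 and Mx2, were not analysed here. Each of the 32 genes had counts in macrophage-like cells of all 6 libraries and passed the filter on low counts there.

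Type I interferons bind the receptor IFNAR1/IFNAR2, whose signal reaches the nucleus and acts on interferon-stimulated response elements in promoters, and the induced proteins block viruses at many steps: some sense foreign nucleic acid, some modify proteins with the ubiquitin-like ISG15, and others act on entry, replication or release. In the heart, resident and recruited macrophages are known to mount such a response after tissue injury without a virus, in part through STING, an adaptor that relays the sensing of DNA in the cytosol.

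The libraries held CD45+ cardiac cells of C57Bl6J mice taken 28 days after treatment of the heart, profiled by 10x Genomics 3′ single-cell sequencing. The 3 groups, of 2 libraries each, were sham-treated wild type, wild type given 12 Gy in 1 fraction by a small-animal irradiator, and mice labelled STING KO after the same 12 Gy. Sham-treated knockout mice were not analysed here, so the genotypes could be compared only after irradiation. The labels describe no knockout allele and give no age or sex, and do not tell whether a group's 2 libraries are from different animals. The p-values therefore measure the spread between libraries, which may be technical.

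Of 45904 barcodes, 31279 passed the filters, with median depths of 4409 to 6792 unique molecular identifiers (UMIs) per cell, and any 2 libraries shared between 4 and 27 barcodes. The largest class was macrophage-like (10932 cells, 1298 to 1979 per library), in which all 10 macrophage markers were detected. Levels below are counts per 1000000 UMIs of that class in a library (CPM). Since tags come from the 3′ end and are not divided by length, levels were compared between libraries and classes but not between genes. The transcript of STING, Tmem173, stood at 49.5 and 44.8 CPM in sham, 56.5 and 53.5 CPM in irradiated wild-type and 51.0 and 50.5 CPM in knockout-labelled macrophage-like cells. It did not separate the genotypes, and a 3′ tag outside an altered part would check nothing, so the third group is called the knockout-labelled libraries throughout.

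The promoters of the members are shown first, because response elements of this kind lie in promoters. RefSeq promoters (GRCm38.p6, from 250 bases before to 50 after each start) were found for 24 of the 34 genes. No entry was used for Dhx58, Ifi27l2a, Mx1, Mx2, Parp14, Parp9, Rtp4, Tor3a, Usp18 and Zbp1. The core letters of an interferon-stimulated response element, GAAA, any 2 bases and again GAAA, on either strand (TTTC, any 2 bases and TTTC when read on the other), were present for 9 of these 24 genes (37.5%), against 3.99% of 27025 genes with a promoter in the table. The genes were Isg15, Bst2, Rsad2, Trim30a, Phf11b, Ifih1, Ddx58, Ifitm3 and Eif2ak2. The shorter letters GAAA, any 2 bases and GAA, which match wherever the longer ones do, were present for 12 of 24 members (50%) and 9.76% of genes. Ifi44, Samd9l and Trim25 were the 3 added by them. A match describes the letters of the window and not a bound site. The 150 bases before the start are printed 5′ to 3′ on the gene's strand for the 5 members with a match of the longer letters there, with the matched letters in capitals. All 5 genes lie on the minus strand. Gene positions given with the members below are from GENCODE, on GRCm38.

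Isg15, chr4:156200819-156200968, minus strand: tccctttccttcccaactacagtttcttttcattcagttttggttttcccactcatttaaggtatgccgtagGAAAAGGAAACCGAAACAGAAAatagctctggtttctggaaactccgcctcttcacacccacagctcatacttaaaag

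Bst2, chr8:71537473-71537622, minus strand: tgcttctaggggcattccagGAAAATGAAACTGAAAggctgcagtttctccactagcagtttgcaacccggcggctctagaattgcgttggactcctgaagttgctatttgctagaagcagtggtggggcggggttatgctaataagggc

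Rsad2, chr12:26456453-26456602, minus strand: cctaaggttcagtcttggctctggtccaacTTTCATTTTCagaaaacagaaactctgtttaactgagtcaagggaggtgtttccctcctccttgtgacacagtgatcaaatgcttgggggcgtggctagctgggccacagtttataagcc

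Trim30a, chr7:104465194-104465343, minus strand: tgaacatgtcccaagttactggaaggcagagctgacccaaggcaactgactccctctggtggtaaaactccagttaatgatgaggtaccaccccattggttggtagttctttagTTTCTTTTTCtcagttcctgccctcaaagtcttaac

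Phf11b, chr14:59341331-59341480, minus strand: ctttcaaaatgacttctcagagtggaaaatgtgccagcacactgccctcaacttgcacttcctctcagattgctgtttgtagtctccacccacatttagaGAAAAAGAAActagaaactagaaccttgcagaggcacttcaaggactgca

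In Isg15 the capitals are 3 overlapping matches, the first of which begins 78 bases before the start. Bst2 holds 2 overlapping matches, from 130 bases before the start. The matches of Rsad2 and Trim30a lie on the opposite strand, from 120 and 36 bases before the start, and that of Phf11b begins at 50 bases.

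Irradiated and sham wild-type macrophage-like cells were compared first. Of the 32 members 29 rose, 1 fell (Trim25) and 2 did not pass the threshold (Dtx3l and Ifi27l2a), where a call is an adjusted p under 0.05 in edgeR's quasi-likelihood test over all 12450 genes tested. Among all genes 6.18% rose and 5% fell. The median log2 fold change was 0.87 over the members and -0.0021 over all genes tested. Both irradiated libraries were above both sham libraries for 31 members and below both for Trim25. The share of all genes separated in this way is not given.

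Irradiated knockout-labelled cells were compared with irradiated wild type in the same class. Of the 32 members 17 fell, 0 rose and 15 did not pass, where 2.05% of all genes fell, and the members' median was -0.61. By unadjusted p under 0.05, 27 members differed, and DESeq2 called 20, all lower. Here and below, shares of all genes are for edgeR's adjusted calls. None is given for unadjusted p, for DESeq2 or for fits with a library or cluster left out or a setting changed. Those counts therefore cannot be set against a rate over all genes. Both knockout-labelled libraries were below both irradiated wild-type libraries for 24 members, again without the share of all genes. The radiation and genotype comparisons share the irradiated wild-type libraries, so their values are given side by side and not as independent results. Differences below are log2 fold changes ± SE, with radiation first and genotype second where a pair is given.

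**Figure D1:**
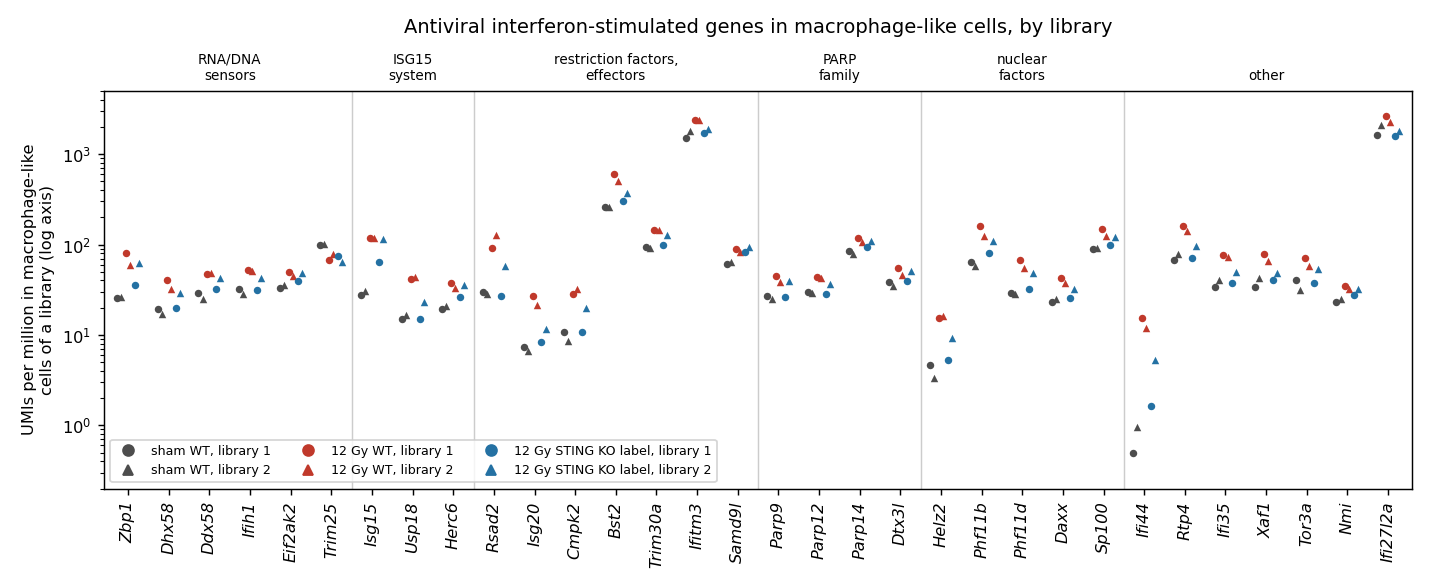
Each point is 1 library's level of a gene in macrophage-like cells, in CPM on a log axis, with genes grouped by role (colour gives the group, shape the library number). The red points of irradiated wild type lie above the grey sham points for 31 of 32 genes, and blue triangles (knockout-labelled library 2) lie above blue circles (library 1) for 31.

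Members that sense nucleic acids formed the first role group, in which 5 of 6 rose after irradiation. Zbp1 encodes a sensor of left-handed Z-form nucleic acids. Its level was 25.9 and 26.0 CPM in sham, 80.3 and 59.9 CPM in irradiated wild type and 35.6 and 63.1 CPM in the knockout-labelled libraries. The knockout-labelled libraries lay on either side of the irradiated wild-type library 2. The log2 fold change was 1.45 ± 0.24 for radiation (adjusted p = 0.00631) and -0.62 ± 0.22 for genotype (adjusted p = 0.159). Dhx58, which encodes LGP2, a regulator of the RNA sensors, stood at 19.6 and 16.9 CPM in sham, 40.6 and 32.6 CPM in irradiated wild type and 19.6 and 29.0 CPM in the knockout-labelled libraries. It rose by 1.02 ± 0.18 (adjusted p = 0.00874), and its genotype difference of -0.70 ± 0.17 did not pass (adjusted p = 0.0604). Ddx58, the gene of the RNA sensor RIG-I, stood at 28.8 and 24.8 CPM in sham, 47.6 and 48.9 CPM in irradiated wild type and 32.3 and 42.6 CPM in the knockout-labelled libraries, with both irradiated wild-type libraries above all others. Its radiation difference was 0.87 ± 0.13 (adjusted p = 0.00431). Ifih1, the gene of the long double-stranded RNA sensor MDA5, was the member of this group that fell by genotype, at -0.58 ± 0.13 (adjusted p = 0.0482), after a rise of 0.78 ± 0.13. Eif2ak2, the RNA-activated kinase PKR, rose by 0.47 ± 0.12.

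Trim25 (ENSMUSG00000000275, chr11:88999376-89020293, plus strand), which encodes a ubiquitin ligase that activates RIG-I, moved against the rest. Its level was 99.0 and 102 CPM in sham, 66.9 and 78.1 CPM in irradiated wild type and 74.0 and 64.0 CPM in the knockout-labelled libraries. Sham libraries were the highest, and it fell by 0.45 with an SE of 0.11 on the log2 scale after irradiation (adjusted p = 0.0322). Knockout-labelled libraries were also below sham (-0.63 ± 0.11, adjusted p = 0.00828). The radiation call was lost without sham library 1, without sham library 2, without irradiated wild-type library 1, when at most 5% mitochondrial UMIs were allowed, and when cells were clustered without interferon genes.

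The 3 genes of the ISG15 system all rose. Isg15 (ENSMUSG00000035692, chr4:156199424-156200818, minus strand), the ubiquitin-like modifier itself, stood at 27.4 and 30.3 CPM in sham, 119 and 118 CPM in irradiated wild type and 63.6 and 116 CPM in the knockout-labelled libraries. Knockout-labelled library 2 reached the irradiated wild-type level, library 1 did not, and both lay above sham. The radiation difference was 2.06 ± 0.23 (adjusted p = 0.00134), and the genotype difference of -0.52 ± 0.21 did not pass (adjusted p = 0.204). Usp18 (ENSMUSG00000030107, chr6:121245906-121270917, plus strand), whose product removes ISG15 from proteins and restrains receptor signalling, stood at 15.2 and 16.5 CPM in sham, 41.1 and 44.0 CPM in irradiated wild type and 14.8 and 23.1 CPM in the knockout-labelled libraries. Knockout-labelled library 1 was at the sham level and library 2 above it. It rose by 1.45 ± 0.18 for radiation and fell for genotype (-1.28 ± 0.17, adjusted p = 0.00859). Herc6, the ligase that attaches ISG15 in mice, stood at 19.2 and 20.9 CPM in sham, 37.1 and 33.3 CPM in irradiated wild type and 26.1 and 35.9 CPM in the knockout-labelled libraries, and its rise was 0.83 ± 0.15 (adjusted p = 0.00912).

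Restriction factors and effector enzymes rose in 7 of 7 measured members and fell by genotype in 6. Rsad2 (ENSMUSG00000020641, chr12:26442746-26456452, minus strand), the gene of viperin, which makes a chain-terminating nucleotide, stood at 29.6 and 28.0 CPM in sham, 92.4 and 128 CPM in irradiated wild type and 27.0 and 58.3 CPM in the knockout-labelled libraries. The irradiated wild-type libraries were the highest and knockout-labelled library 1 was below both sham libraries. Its differences were 1.96 ± 0.30 for radiation (adjusted p = 0.00445) and -1.49 ± 0.28 for genotype (adjusted p = 0.0301). Cmpk2, a nucleotide kinase that supplies viperin's substrate, lies 12751 bases from Rsad2 on chromosome 12 on the opposite strand and stood at 10.7 and 8.54 CPM in sham, 28.4 and 32.02 CPM in irradiated wild type and 10.9 and 19.7 CPM in the knockout-labelled libraries. Its differences were 1.68 ± 0.25 and -1.10 ± 0.22. Isg20 (ENSMUSG00000039236, chr7:78913424-78920396, plus strand), an RNA exonuclease, stood at 7.44 and 6.64 CPM in sham, 27.2 and 21.4 CPM in irradiated wild type and 8.33 and 11.7 CPM in the knockout-labelled libraries. The 3 groups did not overlap, and Isg20 had the lowest genotype adjusted p of the members (0.00742), with differences of 1.80 ± 0.19 and -1.39 ± 0.17.

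Bst2 (ENSMUSG00000046718, chr8:71534255-71537456, minus strand), the gene of tetherin, which holds budding virions at the cell surface, stood at 259 and 257 CPM in sham, 609.8 and 503 CPM in irradiated wild type and 303 and 369 CPM in the knockout-labelled libraries. Sham, knockout-labelled and irradiated wild-type libraries were ordered without overlap. It had the lowest radiation adjusted p of the members (0.000737), with differences of 1.13 ± 0.11 and -0.84 ± 0.11. Ifitm3, which blocks the fusion of viruses with endosomes, stood at 1516 and 1797 CPM in sham, 2396 and 2380.3 CPM in irradiated wild type and 1733 and 1876 CPM in the knockout-labelled libraries. Irradiated wild-type libraries were the highest, and sham and knockout-labelled cells differed by 0.03 ± 0.10. Ifitm3 and Ifi27l2a have similar copies in the genome, so part of their UMIs could belong to those. Trim30a, a ubiquitin ligase gene, rose by 0.68 ± 0.11 and fell by genotype (-0.48 ± 0.11, adjusted p = 0.0486). Samd9l, which encodes an inhibitor of translation, rose by 0.48 ± 0.09 and had the smallest genotype difference of the 32 members (-0.08 ± 0.09, adjusted p = 0.662).

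Of the 3 ADP-ribosyltransferase genes and their partner, 3 rose and 1 fell by genotype. Parp9 stood at 27.2 and 24.9 CPM in sham, 45.1 and 38.8 CPM in irradiated wild type and 26.5 and 39.2 CPM in the knockout-labelled libraries. Its radiation difference was 0.71 ± 0.17 (adjusted p = 0.0272). Dtx3l, the ubiquitin ligase that pairs with PARP9, overlaps it by 682 bases on the opposite strand of chromosome 16, and its difference of 0.47 ± 0.13 did not pass (adjusted p = 0.0545). No source used here says whether the counting used strand, and without it UMIs in the overlap cannot be told apart. Parp12 stood at 29.8 and 29.1 CPM in sham, 44.0 and 42.4 CPM in irradiated wild type and 28.2 and 37.0 CPM in the knockout-labelled libraries, with knockout-labelled library 1 at the sham level. It rose by 0.58 ± 0.12 and fell by genotype (-0.52 ± 0.12, adjusted p = 0.0494). Parp14 stood at 84.3 and 78.1 CPM in sham, 119 and 107 CPM in irradiated wild type and 93.3 and 109.8 CPM in the knockout-labelled libraries, and rose by 0.50 ± 0.10.

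All 5 nuclear factors rose, and 3 fell by genotype. Helz2, a helicase that acts as a nuclear receptor coactivator, stood at 4.60 and 3.36 CPM in sham, 15.6 and 16.3 CPM in irradiated wild type and 5.28 and 9.25 CPM in the knockout-labelled libraries. Its UMIs numbered 47 and 39 in the sham libraries. The radiation difference was 2.03 ± 0.26 (adjusted p = 0.00212) against -1.25 ± 0.22 for genotype. Phf11b stood at 64.5 and 57.8 CPM in sham, 160.4 and 126 CPM in irradiated wild type and 80.1 and 109 CPM in the knockout-labelled libraries, with differences of 1.25 ± 0.15 and -0.71 ± 0.15. Phf11d stood at 28.9 and 28.1 CPM in sham, 67.4 and 54.7 CPM in irradiated wild type and 31.9 and 48.9 CPM in the knockout-labelled libraries, with 1.12 ± 0.18 for radiation, while its genotype difference did not pass (adjusted p = 0.0604). The Phf11 genes are similar copies on chromosome 14, so the division of UMIs between them is uncertain. Daxx, a histone chaperone that silences viral DNA, stood at 23.0 and 25.2 CPM in sham, 42.8 and 37.7 CPM in irradiated wild type and 25.8 and 31.8 CPM in the knockout-labelled libraries. Knockout-labelled libraries lay between the other groups, and its differences were 0.76 ± 0.12 and -0.60 ± 0.12. Sp100, a nuclear body protein gene, rose by 0.60 ± 0.11.

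Among the 7 remaining members 6 rose and 5 fell by genotype. Ifi44 (ENSMUSG00000028037, chr3:151730922-151749960, minus strand) had the largest fold of the list on very few molecules: its UMIs numbered 5 and 11 in sham, 161 and 157 in irradiated wild type and 30 and 97 in the knockout-labelled libraries, or 0.490 and 0.949 CPM in sham, 15.2 and 12.0 CPM in irradiated wild type and 1.63 and 5.31 CPM in the knockout-labelled libraries. The radiation difference was 4.21 ± 0.55 (adjusted p = 0.00215) and the genotype difference -2.08 ± 0.38. Rtp4, a chaperone gene for surface receptors, stood at 67.2 and 79.0 CPM in sham, 159 and 139.8 CPM in irradiated wild type and 70.9 and 96.6 CPM in the knockout-labelled libraries. Its differences were 1.05 ± 0.15 (adjusted p = 0.00314) and -0.95 ± 0.15 (adjusted p = 0.0135). Ifi35, which binds its fellow member Nmi, stood at 33.6 and 41.0 CPM in sham, 76.6 and 72.3 CPM in irradiated wild type and 37.4 and 49.8 CPM in the knockout-labelled libraries, and knockout-labelled library 1 lay within the sham range. Its differences were 1.01 ± 0.14 and -0.89 ± 0.14. Xaf1, a pro-apoptotic gene, stood at 34.1 and 42.3 CPM in sham, 79.4 and 66.0 CPM in irradiated wild type and 40.7 and 48.2 CPM in the knockout-labelled libraries, with differences of 0.94 ± 0.14 and -0.82 ± 0.13. Tor3a and Nmi rose by 0.87 ± 0.18 and 0.49 ± 0.11. Ifi27l2a did not pass for radiation (0.43 ± 0.13, adjusted p = 0.0725) and fell by genotype (-0.66 ± 0.13, adjusted p = 0.0353).

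**Figure D2:**
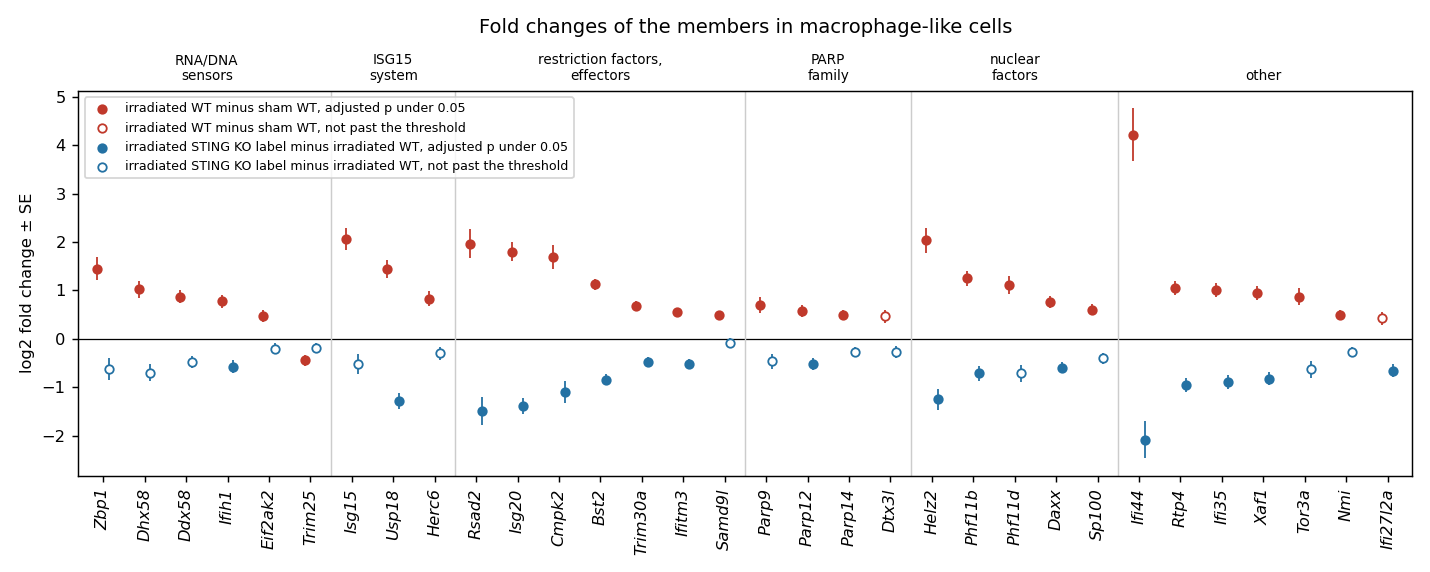
Log2 fold changes ± SE of the 32 members in macrophage-like cells, for irradiated minus sham wild type (red) and knockout-labelled minus wild type after irradiation (blue); filled points passed an adjusted p under 0.05. Red points are above 0 except for Trim25, all blue points are below 0, and Ifi44 has the largest value in both directions.

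The knockout-labelled libraries differed from each other. Library 2 was above library 1 for 31 of 32 members in macrophage-like cells, with a median ratio of 1.34, whereas the second sham library was higher for 16 and the second irradiated wild-type library for 7. The same count and ratio over all genes are not given, here or for endothelial-like cells below. Without knockout-labelled library 1 the 17 genotype calls became 2, Isg20 and Usp18, and without library 2 they became 20. They became 9 and 8 without sham library 1 or 2, and 4 and 5 without irradiated wild-type library 1 or 2. Without sham library 1, the 30 radiation calls became 14, and they became 19 without sham library 2 or without irradiated wild-type library 1. The 14 members called for radiation in each of the 6 fits that left out 1 library were Bst2, Cmpk2, Ddx58, Helz2, Ifi35, Ifi44, Ifitm3, Isg15, Isg20, Phf11b, Rtp4, Trim30a, Usp18 and Xaf1. With at most 5% mitochondrial UMIs 15 members were called for radiation and 2 for genotype, Ifi27l2a and Ifitm3. That limit kept 2185 of the 10932 macrophage-like cells, 258 to 524 per library.

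Irradiated knockout-labelled cells were also set beside sham wild type. Isg15 (1.54 ± 0.23, adjusted p = 0.00407) and Samd9l (0.41 ± 0.09, adjusted p = 0.0246) rose and Trim25 fell, where 8.92% of all genes were called in either direction. The members' median was 0.24, and both knockout-labelled libraries were above both sham libraries for 20 members. The share of all genes ordered so is not given. Without knockout-labelled library 1 this comparison called 11 members, without sham library 2 it called 0, and without sham library 1 or knockout-labelled library 2 it called 1.

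Markers of other cell types moved in the same cells. The summed level of the 10 monocyte markers in macrophage-like cells was 275 and 249 CPM in sham, 692 and 654 CPM in irradiated wild type and 789.8 and 893 CPM in the knockout-labelled libraries. The 10 cardiomyocyte markers summed to 216 and 228 CPM in sham, 163 and 166 CPM in irradiated wild type and 139 and 142 CPM in the knockout-labelled libraries, and the 10 neutrophil markers to 266 and 331 CPM in sham, 129 and 200.3 CPM in irradiated wild type and 177 and 221 CPM in the knockout-labelled libraries. Irradiated wild type was highest for 2 further lists, as for most members: the 8 B cell markers summed to 48.6 and 50.5 CPM in sham, 74.7 and 99.7 CPM in irradiated wild type and 49.7 and 54.4 CPM in the knockout-labelled libraries, and the 8 NK cell markers to 6.17 and 7.59 CPM in sham, 15.5 and 15.1 CPM in irradiated wild type and 8.01 and 12.1 CPM in the knockout-labelled libraries. The 8 cycling markers summed to 23.2 and 21.6 CPM in sham, 45.4 and 37.5 CPM in irradiated wild type and 41.3 and 55.1 CPM in the knockout-labelled libraries. Each marker of these 6 lists was detected. The part of these shifts in the members' differences was not tested.

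Other genes of the pathway were measured in macrophage-like cells from lists that the earlier results of these data had shaped. Of the Ifit, Oas, Pyhin and Slfn families, 25 of 29 tested genes rose with radiation, 0 fell and 19 fell by genotype. Oas3, an enzyme that makes the activator of RNase L, stood at 6.56 and 6.38 CPM in sham, 36.2 and 32.5 CPM in irradiated wild type and 11.3 and 18.4 CPM in the knockout-labelled libraries. Ifit3, whose product partners the RNA-binding IFIT1, stood at 28.0 and 27.3 CPM in sham, 129 and 114 CPM in irradiated wild type and 31.0 and 60.7 CPM in the knockout-labelled libraries. In both, irradiated wild type was the highest group. The growth regulator gene Slfn1 (2.40 ± 0.23), the nucleic acid sensor gene Ifi209 (1.07 ± 0.10), and the genes Oasl1 (2.01 ± 0.22) and Ifit2 (2.19 ± 0.27) rose with radiation.

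Of 15 genes of interferon induction 3 rose with radiation: Irf7, Ikbke and Cgas (0.54 ± 0.11). Irf7, the factor that amplifies interferon production, stood at 39.95 and 42.8 CPM in sham, 242 and 192 CPM in irradiated wild type and 48.4 and 74.9 CPM in the knockout-labelled libraries, a rise of 2.41 ± 0.19 and a genotype difference of -1.93 ± 0.18 (adjusted p = 0.0029). Ikbke, a kinase that activates IRF3 and IRF7, stood at 2.64 and 2.93 CPM in sham, 8.40 and 9.12 CPM in irradiated wild type and 10.1 and 11.0 CPM in the knockout-labelled libraries. Both irradiated groups rose against sham, without overlap (1.67 ± 0.18 and 1.82 ± 0.17). Among the receptor and signalling genes, Stat2 (0.66 ± 0.15) and Socs1 (0.43 ± 0.11) rose and Socs3 (-0.61 ± 0.13) fell with radiation, and Socs1 fell by genotype (-0.95 ± 0.11). The receptor genes Ifnar1 and Ifnar2 were at 0.02 ± 0.10 and 0.13 ± 0.09. Of 20 interferon genes only Ifnb1, the gene of interferon beta, passed the filter on low counts. Its UMIs in macrophage-like cells were 1 and 1 in sham, 17 and 64 in irradiated wild type and 7 and 8 in the knockout-labelled libraries, and it was called higher with radiation and lower by genotype. No fold is given, since each sham library held 1 UMI.

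The rise was next followed within macrophage-like clusters, 4 of which held at least 20 cells in every library. Members of the cluster led by Lilra5 and Cx3cr1 rose in 13 cases and fell in 1 of 32 (5.81% of genes called in either direction). Members rose in 17 cases and fell in 1 in the cluster led by Mmp12 and Retnla (2.95%). In the cluster led by Lyve1 and Folr2, markers of resident macrophages, 14 rose and 1 fell (2.6%). In the cluster led by Cd209f and Ccl8, Bst2 alone rose among 30 tested (0.226%), where 9 had an unadjusted p under 0.05. The member that fell was Trim25 each time. By genotype 7, 11, 7 and 0 members fell in the same order, with 1.7%, 2%, 2.46% and 0.0953% of genes called in either direction. In the last cluster 4 members had an unadjusted p under 0.05 and DESeq2 also called 0. Whether the clusters differ was not tested. Single libraries changed these counts. The radiation calls of the Lilra5 cluster, 14, became 7 without sham library 1 and 9 without irradiated wild-type library 1, and the 18 of the Mmp12 cluster became 9 in both cases. The 15 of the Lyve1 cluster became 3 and 2 without irradiated wild-type library 1 or 2. For genotype, the 7 calls of the Lilra5 cluster became 0 without knockout-labelled library 1 and 11 without either sham library, and the 11 of the Mmp12 cluster became 5 without knockout-labelled library 1. The 7 of the Lyve1 cluster became 14 without either sham library, 3 and 1 without irradiated wild-type library 1 or 2, and 2 and 4 without knockout-labelled library 1 or 2. Without the filter on low counts the Lilra5 cluster had 2 calls for radiation and 0 for genotype. The Bst2 call of the last cluster was lost without either sham library. Isg15 stood at 18.0 and 21.2 CPM in sham, 54.5 and 45.1 CPM in irradiated wild type and 35.3 and 58.2 CPM in knockout-labelled cells of the Lyve1 cluster, and Bst2 at 253 and 251 CPM in sham, 591 and 543 CPM in irradiated wild type and 339 and 398 CPM in knockout-labelled cells.

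The remaining macrophage-like cluster was led by Ifit3, Ifit2, Cmpk2, Rsad2 and Usp18, so that members helped to define it. It held 16 and 19 cells of the sham libraries, 138 and 133 of irradiated wild type and 40 and 100 of the knockout-labelled libraries, which was 0.859% and 0.972% in sham, 10.6% and 6.78% in irradiated wild type and 2.13% and 5.05% in knockout-labelled macrophage-like cells. Summed over the 32 members, its level was 18100 and 18242 CPM in sham, 16960 and 17295 CPM in irradiated wild type and 15015 and 16981 CPM in knockout-labelled cells. Both irradiated wild-type libraries were below both sham libraries for 19 members and above both for 1. Isg15, at 706 and 672 CPM in sham, 642 and 789 CPM in irradiated wild type and 1136 and 1219.9 CPM in knockout-labelled cells, went another way. It was the 1 member with both knockout-labelled libraries above both sham libraries. Sham levels here rest on those 16 and 19 cells. When its cells were left out, 22 members rose and 1 fell with radiation, and 13 fell by genotype. The shares of all genes called in that fit are not given.

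The spread over single cells was described after each macrophage-like cell had been thinned to 2000 UMIs, which left out between 42 and 132 cells per library. The median cell held 7 and 9 member UMIs in sham, 12 and 11 in irradiated wild type and 8 and 9 in the knockout-labelled libraries. The 90th percentile was 17 and 19 UMIs in sham, 31 and 27.1 UMIs in irradiated wild type and 19 and 22 UMIs in the knockout-labelled libraries. In UMIs, irradiated wild type and sham lay further apart at the 90th percentile than at the median. Ifitm3 and Ifi27l2a held between 65.0% and 74.3% of the members' summed level. Over the other 30 members, a choice made once these values had been seen, the median cell held 2 and 2 UMIs in sham, 4 and 3 UMIs in irradiated wild type and 2 and 3 UMIs in the knockout-labelled libraries. Cells with none of the 30 made up 13.1% and 12.2% of sham, 7.48% and 7.87% of irradiated wild-type and 13% and 9.96% of knockout-labelled cells. Before thinning, the mean cell held 25.7 and 31.9 member UMIs in sham, 64.6 and 49.9 member UMIs in irradiated wild type and 48.4 and 54.9 member UMIs in the knockout-labelled libraries, at unequal depth. The number of different members with a UMI in a thinned cell had a 90th percentile of 6 and 6 in sham, 10 and 9 in irradiated wild type and 7 and 9 in the knockout-labelled libraries.

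**Figure D3:**
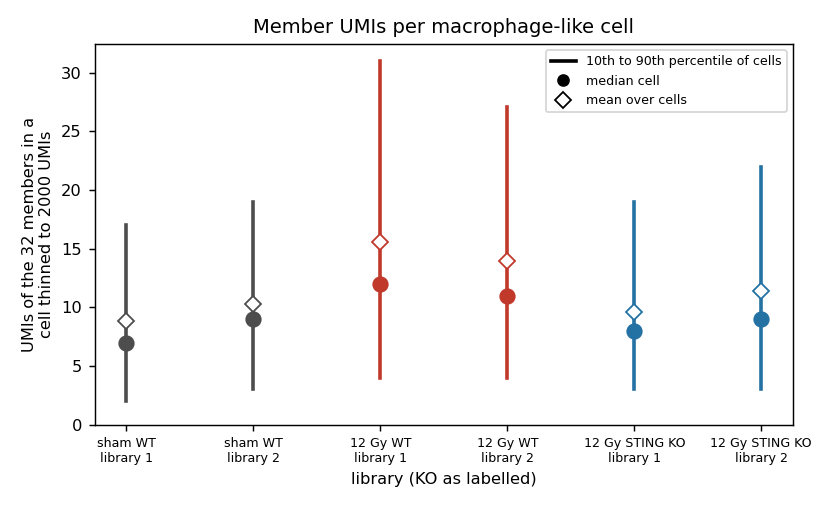
UMIs of the 32 members in each macrophage-like cell thinned to 2000 UMIs, by library: bars run from the 10th to the 90th percentile of cells, circles are medians and diamonds means. The medians of the irradiated wild-type libraries are 12 and 11 against 7 to 9 in the other libraries, and their 90th percentiles are 31 and 27.1 against 17 to 22.

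Members were not confined to macrophages. In sham hearts the endothelial-like class, present although the cells are labelled CD45+, had the highest level of 17 of the 32 members among 9 classes, followed by monocyte-like (6 members) and neutrophil-like cells (4). How many of all genes were highest in each class is not given, so this order is not shown to be particular to the members. Rsad2 stood at 275 and 238 CPM in sham endothelial-like cells, 229 and 184 CPM in neutrophil-like cells and 29.6 and 28.0 CPM in macrophage-like cells. Isg15 stood at 278 and 241 CPM in sham neutrophil-like cells and 95.9 and 104 CPM in endothelial-like cells, the next class in order. Ifitm3 was highest in monocyte-like cells (4305 and 4558 CPM) and lowest in B cell-like cells (34.1 and 54.6 CPM). Helz2 was lowest in macrophage-like cells (4.60 and 3.36 CPM) and highest in B cell-like cells (109 and 82.5 CPM). Droplet libraries carry free RNA, so low levels in a class may be background.

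**Figure D4:**
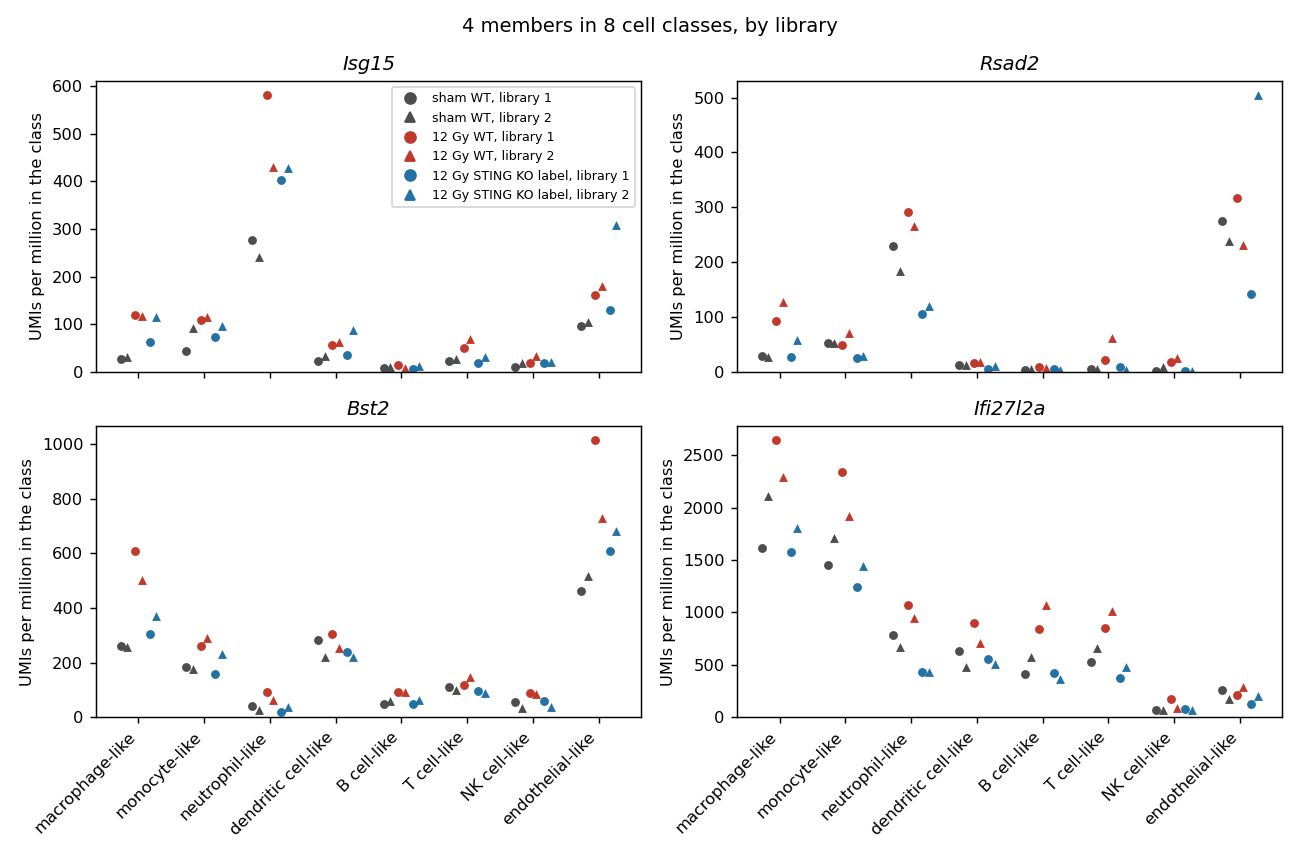
Levels of Isg15, Rsad2, Bst2 and Ifi27l2a in 8 cell classes, in CPM, with 1 point per library (colour gives the group, shape the library number). Sham Rsad2 is highest in endothelial-like and neutrophil-like cells, and knockout-labelled library 2 stands at 505 for Rsad2 in endothelial-like cells against 142 in library 1.

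Outside macrophage-like and cycling cells few members passed for radiation. In monocyte-like cells edgeR called 0 of 31 tested members, where 0.0691% of genes were called. The unadjusted p was under 0.05 for 13 members, DESeq2 called 0, and 27 of 31 values were above 0 (median 0.37). The lowest p was that of Ifi35, at 43.3 and 47.5 CPM in sham, 85.9 and 87.7 CPM in irradiated wild type and 48.6 and 49.4 CPM in the knockout-labelled libraries and a difference of 0.94 ± 0.17 (adjusted p = 0.0731). Phf11d, Rtp4, Bst2 and Ifi27l2a followed, with differences of 1.36 ± 0.26, 0.84 ± 0.19, 0.62 ± 0.17 and 0.43 ± 0.12. Ifitm3, highest of all sham classes in these cells, stood at 4305 and 4558 CPM in sham, 4945 and 5245 CPM in irradiated wild type and 4248 and 4189 CPM in the knockout-labelled libraries. Irradiated wild type was above both other groups, by 0.20 ± 0.08 against sham, which did not pass (adjusted p = 0.639). Without irradiated wild-type library 1 or 2 edgeR called 1 and 3 members there.

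In neutrophil-like cells edgeR called 0 of 30 members (0.0454% of genes), 9 had an unadjusted p under 0.05 and DESeq2 called 0. Isg15 stood at 278 and 241 CPM in sham, 582 and 431 CPM in irradiated wild type and 403 and 429 CPM in the knockout-labelled libraries. Both sham libraries were the lowest, and the difference of 0.91 ± 0.19 did not pass (adjusted p = 0.174). Phf11b, Herc6, Bst2 and Trim30a had differences of 2.07 ± 0.43, 1.49 ± 0.38, 1.18 ± 0.33 and 0.63 ± 0.18. In B cell-like cells edgeR called 0 of 29 members and 0% of all genes, 9 members had an unadjusted p under 0.05, and DESeq2 called 2. Ifitm3, with the lowest p, stood at 34.1 and 54.6 CPM in sham, 119.6 and 101 CPM in irradiated wild type and 73.2 and 69.9 CPM in the knockout-labelled libraries, a difference of 1.28 ± 0.21 (adjusted p = 0.109). Ifi27l2a stood at 411 and 577 CPM in sham, 839 and 1075 CPM in irradiated wild type and 423 and 362 CPM in the knockout-labelled libraries, and both irradiated wild-type libraries were above all others, yet 0.99 ± 0.20 did not pass (adjusted p = 0.21). Without irradiated wild-type library 1 edgeR called 4 members in B cell-like cells, and without sham library 2 or irradiated wild-type library 2 it called 1.

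In endothelial-like cells 2 of 32 members rose, where 3.83% of genes were called. Bst2 stood at 462 and 515 CPM in sham, 1015 and 727 CPM in irradiated wild type and 607 and 683 CPM in the knockout-labelled libraries and rose by 0.85 ± 0.15 (adjusted p = 0.0295). Ifitm3 stood at 2390.4 and 2334 CPM in sham, 3359 and 3099 CPM in irradiated wild type and 2294 and 2688 CPM in the knockout-labelled libraries and rose by 0.47 ± 0.09 (adjusted p = 0.0312). In both, the irradiated wild-type libraries were above all others. The count became 0 without either sham library, without either knockout-labelled library and with only the 4 libraries compared, and 5 without irradiated wild-type library 2. Xaf1, Phf11d and Ifi35 followed with 0.51 ± 0.14, 0.72 ± 0.20 and 0.58 ± 0.16. Rsad2 stood at 275 and 238 CPM in sham, 317 and 232 CPM in irradiated wild type and 142 and 505 CPM in the knockout-labelled libraries. Sham and irradiated wild-type libraries overlapped, and knockout-labelled library 2 was above all others.

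The cycling class was named by its dividing-cell markers and also carried macrophage markers, which summed to between 9791 and 12747 CPM over the 6 libraries against 19958 to 22627 CPM in macrophage-like cells. B cell, T cell and NK cell markers there summed to at most 1144, 263 and 440.2 CPM. Its calls are therefore not counted as calls outside macrophages. It had 5 of 32 members that rose (0.324% of genes). They were Isg15 (1.92 ± 0.20), Bst2 (1.28 ± 0.16), Ifitm3 (0.73 ± 0.11), Ifi35 (1.03 ± 0.18) and Phf11b (0.94 ± 0.16). The class had 0 called members without either sham library, 3 and 2 without knockout-labelled library 1 or 2, and 11 without irradiated wild-type library 2. Isg15 there stood at 17.2 and 17.7 CPM in sham, 70.3 and 55.2 CPM in irradiated wild type and 44.3 and 49.1 CPM in the knockout-labelled libraries, with all irradiated libraries above sham. T cell-like, NK cell-like, dendritic cell-like and fibroblast-like cells had 0 called members of 26, 23, 30 and 30 by edgeR, where 0%, 0%, 0.0121% and 0.0118% of genes were called. Their members with an unadjusted p under 0.05 numbered 6, 4, 7 and 16, and DESeq2 called 0 in each. At Leiden resolution 0.5, edgeR called 7 members in T cell-like and 1 in dendritic cell-like cells. Rsad2 in T cell-like cells stood at 5.54 and 4.44 CPM in sham, 22 and 61.4 CPM in irradiated wild type and 8.27 and 2.65 CPM in the knockout-labelled libraries (adjusted p = 0.219). Rtp4 in NK cell-like cells stood at 13.1 and 14.01 CPM in sham, 39.1 and 26.1 CPM in irradiated wild type and 11.1 and 3.62 CPM in the knockout-labelled libraries, and Ifi27l2a in dendritic cell-like cells at 628 and 479 CPM in sham, 899.6 and 707 CPM in irradiated wild type and 551 and 506 CPM in the knockout-labelled libraries. The fibroblast-like class had 30 cells in irradiated wild-type library 1. Rsad2 there stood at 4.93 and 4.001 CPM in sham, 756 and 31.3 CPM in irradiated wild type and 5.09 and 8.60 CPM in the knockout-labelled libraries, so a single library carried it, and without irradiated wild-type library 2 the class had 10 called members for radiation and 9 for genotype.

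**Figure D5:**
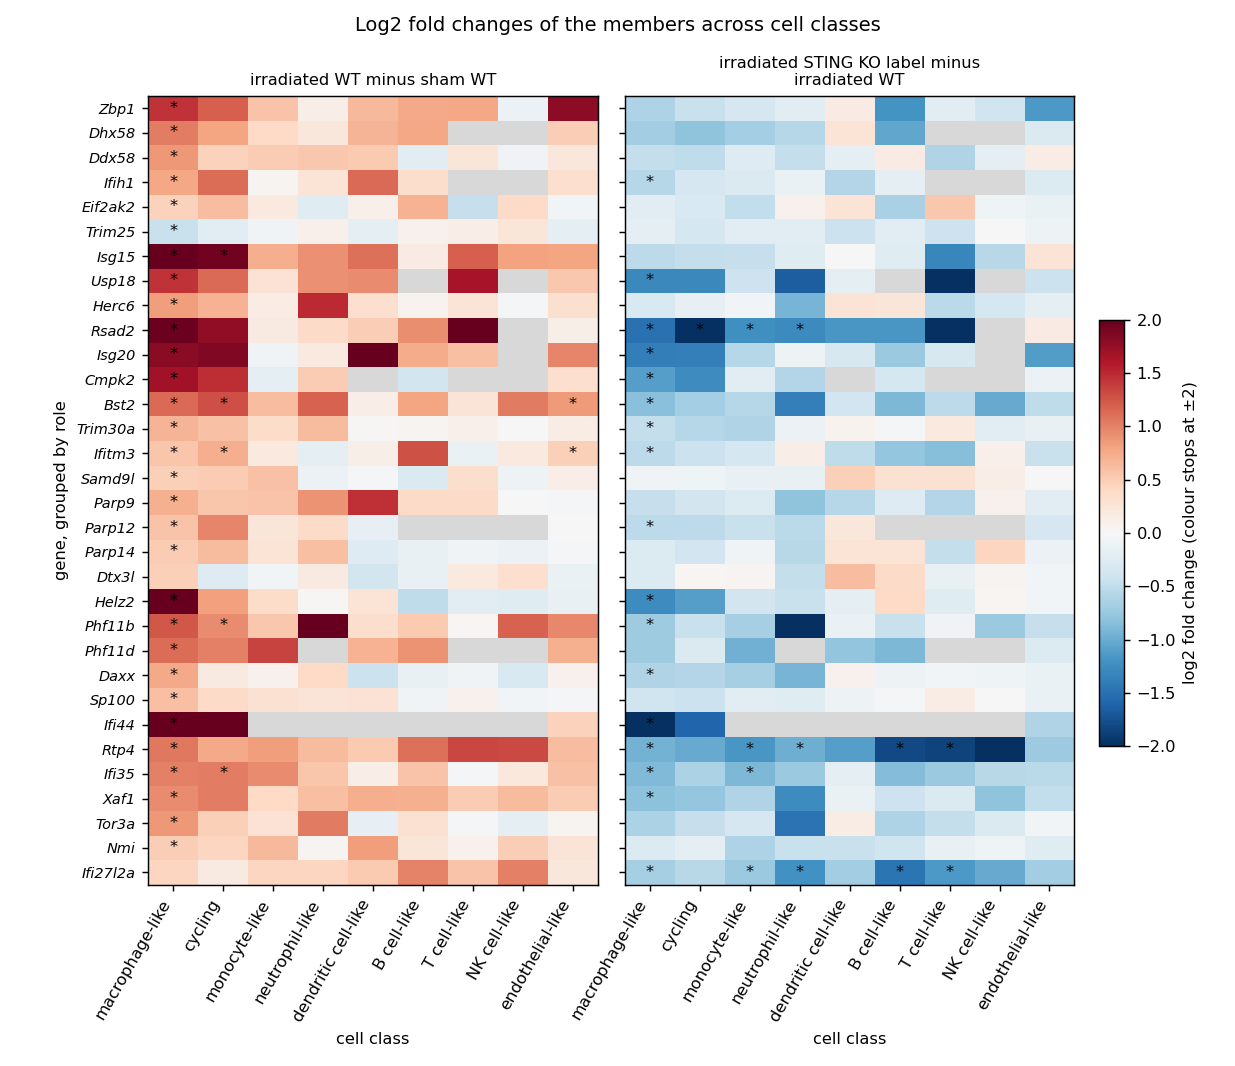
Log2 fold changes of the members (rows, grouped by role) in 9 cell classes (columns), for radiation on the left and genotype on the right; stars mark an adjusted p under 0.05, grey cells were not tested, and colours stop at ±2. The fibroblast-like class is left out because of its 30 cells in 1 library. Stars fill most of the macrophage-like column on the left (30 of 32), while Rtp4 and Ifi27l2a carry most of the stars of other classes on the right.

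Over all kept cells edgeR called 0 of 32 members for radiation, where 0.0127% of genes were called, 25 members had an unadjusted p under 0.05 and DESeq2 called 17. The lowest p was that of Bst2, which stood at 214 and 185 CPM in sham, 459 and 320.5 CPM in irradiated wild type and 269 and 286 CPM in the knockout-labelled libraries. Its difference was 1.00 ± 0.16 (adjusted p = 0.0681). For genotype edgeR also called 0 (0.0191% of genes), 22 members had an unadjusted p under 0.05 and DESeq2 called 5. Knockout-labelled cells against sham gave 0 members by edgeR and by DESeq2 (0.0445% of genes), with 3 at an unadjusted p under 0.05. Sums over all cells mix shifts in class shares with shifts within classes.

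Whether the radiation difference itself was larger in macrophage-like cells was tested as an interaction with library as a block. Against monocyte-like cells 7 of 32 members had a larger difference in macrophage-like cells (0.888% of genes called): Rsad2 (1.75 ± 0.24), Isg15 (1.28 ± 0.24), Cmpk2, Zbp1, Ifi44, Helz2 and Isg20. Against neutrophil-like cells 7 had (1.56%), led by Rsad2 (1.62 ± 0.22) and Isg20 (1.61 ± 0.26). Against B cell-like cells 6 were larger in macrophage-like cells, led by Helz2 (2.53 ± 0.26), and 1, Ifitm3, was larger in B cell-like cells (-0.80 ± 0.21), where 1.45% of genes were called. Against endothelial-like cells 8 were larger (2.73%), among them Helz2 (2.17 ± 0.24), Ifi44 (3.73 ± 0.41) and Isg15 (1.25 ± 0.16). Isg15, Helz2 and Cmpk2 passed in all 4 tests. The 29 calls over the 4 classes became 9 without the macrophage-like cluster led by interferon genes, 9 without sham library 2, 15 without sham library 1 and 15 by DESeq2. With at most 5% mitochondrial UMIs 0 members were called against monocyte-like cells, 3 against neutrophil-like and 3 against endothelial-like cells.

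The genotype comparison was then followed outside macrophage-like cells, where 5 classes, the cycling one included, had members that fell. In monocyte-like cells 4 of 31 fell (0.588% of genes called). Rtp4 stood at 49.0 and 71.2 CPM in sham, 101 and 112 CPM in irradiated wild type and 49.1 and 51.5 CPM in the knockout-labelled libraries, a difference of -1.16 ± 0.18 (adjusted p = 0.00964). Ifi27l2a stood at 1456 and 1713 CPM in sham, 2342 and 1924 CPM in irradiated wild type and 1240.4 and 1441 CPM in the knockout-labelled libraries, with -0.75 ± 0.12. In both, the knockout-labelled libraries lay within or below the sham range. Rsad2 (53.4 and 52.8 CPM in sham, 48.8 and 71.4 CPM in irradiated wild type and 25.1 and 28.5 CPM in the knockout-labelled libraries) overlapped between sham and irradiated wild type and fell by genotype (-1.23 ± 0.21, adjusted p = 0.0151), and Ifi35 fell by 0.90 on the log2 scale. In neutrophil-like cells 3 of 30 fell (0.393%). Rsad2 stood at 229 and 184 CPM in sham, 292 and 266 CPM in irradiated wild type and 105 and 119.7 CPM in the knockout-labelled libraries, with both knockout-labelled libraries below both sham libraries. It fell by genotype (-1.28 ± 0.18, adjusted p = 0.00784). Ifi27l2a stood at 784 and 671 CPM in sham, 1075 and 948 CPM in irradiated wild type and 429 and 430.0 CPM in the knockout-labelled libraries, again below sham (-1.21 ± 0.16), and Rtp4 fell by 0.98.

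In B cell-like cells Ifi27l2a (-1.46 ± 0.20, adjusted p = 0.00533) and Rtp4 (-1.80 ± 0.29, adjusted p = 0.0191) fell, 2 of 29 members (0.316% of genes called). The same 2 genes fell in T cell-like cells (-1.15 ± 0.19 and -1.85 ± 0.32), of 26 members (0.0884%). Rtp4 stood at 24.9 and 25.6 CPM in sham, 72.6 and 65.0 CPM in irradiated wild type and 23.1 and 15.9 CPM in the knockout-labelled libraries there. In cycling cells Rsad2 fell (-2.07 ± 0.33, adjusted p = 0.0492), 1 of 32 members (0.148%). Without knockout-labelled library 1 or 2 the counts became 0 and 1 in monocyte-like, 0 and 0 in neutrophil-like, and 0 and 0 in B cell-like cells, where they became 7 without irradiated wild-type library 1. In T cell-like cells the count became 0 without irradiated wild-type library 2 or knockout-labelled library 2. The Rsad2 call in cycling cells was lost without either sham library and without either knockout-labelled library.

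By edgeR 0 members were called for genotype in endothelial-like (32 tested, 0.0356% of genes called), NK cell-like (23, 1.39%), dendritic cell-like (30, 0.121%) and fibroblast-like cells (30, 0.0588%). Unadjusted p under 0.05 was reached by 9, 4, 6 and 11 members, and DESeq2 called 1, 0, 1 and 0. Library 2 was above library 1 for 31 of 32 members in knockout-labelled endothelial-like cells, with Isg15 at 95.9 and 104 CPM in sham, 162 and 179.9 CPM in irradiated wild type and 129 and 308 CPM in the knockout-labelled libraries. As an interaction, the genotype difference of Isg20 was larger in macrophage-like than in neutrophil-like cells (-1.34 ± 0.24, 0.794% of genes called). Against B cell-like cells Helz2 fell more in macrophage-like cells (-1.66 ± 0.22) and Ifi27l2a fell more in B cell-like cells (0.80 ± 0.20). Parp12 also passed, with 0 UMIs in both knockout-labelled libraries of B cell-like cells, so no fold is given (0.504% of genes called). Against monocyte-like and endothelial-like cells edgeR called 0 members (0.0083% and 0% of genes), with 4 and 15 at an unadjusted p under 0.05 and 0 by DESeq2 in both. The 4 genotype calls over these tests became 11 without irradiated wild-type library 1, 1 without knockout-labelled library 1 and 2 without library 2.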

How the data were processed

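The deposited values are whole-number UMI counts per gene and cell barcode, in 1 matrix per library. The submitters' processing notes name Cell Ranger 5.0.0, Seurat 3 and the build mm10, without their roles; further steps are not given in the sources used here. Barcodes with at least 200 genes and at most 10% mitochondrial UMIs were kept. The cells with the highest Scrublet scores were removed, 0.8% per 1000 cells, 98 to 321 per library, because the automatic threshold marked 0 to 3. Cells of the 6 libraries were clustered together (scanpy 1.11.5 in Python 3.11.15: 2000 variable genes, 30 components, Leiden resolution 1) into 29 clusters, named from marker lists. A cluster with markers of a second lineage was set aside as mixed (4020 cells in all). After the clusters had been seen, the erythroid, cardiomyocyte, platelet and cycling lists were not counted as such a lineage. Macrophage, monocyte and dendritic cell lists were not counted against one another, nor were T cell, NK cell and innate lymphoid lists. Monocyte markers therefore could not set aside a macrophage-like cluster. The cycling class was exempt from this rule. Total counts per library were 31650962 to 59675213 UMIs, and 23.2% to 33.4% of barcodes were over the mitochondrial limit.

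Counts were summed per library and class and tested with edgeR 4.0.16 (R 4.3.3): filterByExpr, TMM scaling, quasi-likelihood F test, all 6 libraries sharing the spread with 3 residual degrees of freedom, and Benjamini-Hochberg adjustment over all genes tested. A call is an adjusted p under 0.05, and SE is the log2 fold change divided by the square root of F. Differences between classes were tested as class by group terms with library as a block and TMM within each class. DESeq2 1.42.0 was an alternative, and scipy 1.17.1 was used for checks. The steps were tested on simulated data. CPM values are counts scaled to 1000000 UMIs of the class. Libraries with the same number in different groups were not treated as pairs: their deviations from the group means correlated at 0.0391, -0.0735 and -0.106 over 9774 genes. With 2 libraries against 2, an exact permutation test of a single value cannot go below p = 0.333, so none is given.

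The members and all lists were chosen with earlier results of these data known. In macrophage-like cells every library's value is given for the 3 members per role with the largest radiation fold, up to 12 members called for genotype with the lowest p, and any member against the list's direction. In other classes these are taken from the 5 lowest p and the 3 highest levels. Outside the list, the 8 pathway genes with the lowest radiation p, Ifnb1 and Tmem173 are named. Cgas, Stat2, Socs1, Socs3, Ifnar1 and Ifnar2 were added after their values had been seen, as were the example genes of the macrophage-like clusters.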

Additional observations from a re-analysis of the deposited data

Results flagged for a closer look

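The radiation or genotype difference of 33 member and class pairs was not the same size in macrophage-like cells as in another class by the interaction test (edgeR, adjusted p under 0.05). Values are the log2 difference in macrophage-like cells minus that in the other class. None of the groups was large enough to look for single outlying libraries.

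For radiation against monocyte-like cells, these were 4.01 for Ifi44, 1.85 for Isg20, 1.84 for Cmpk2, 1.75 for Rsad2, 1.62 for Helz2, 1.28 for Isg15 and 0.859 for Zbp1. Against neutrophil-like cells, they were 2.09 for Helz2, 1.62 for Rsad2, 1.61 for Isg20, 1.29 for Cmpk2, 1.28 for Zbp1, 1.2 for Isg15 and 0.757 for Ifitm3. Against B cell-like cells, they were 2.53 for Helz2, 2.14 for Cmpk2, 1.86 for Isg15, 1.09 for Ddx58, 0.765 for Samd9l, 0.666 for Sp100 and -0.795 for Ifitm3, which rose more in B cell-like cells. Against endothelial-like cells, they were 3.73 for Ifi44, 2.17 for Helz2, 1.83 for Rsad2, 1.34 for Cmpk2, 1.25 for Isg15, 0.787 for Tor3a, 0.714 for Parp9 and 0.608 for Sp100.

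For genotype, the value was -1.34 for Isg20 against neutrophil-like cells, and -1.66 for Helz2 and 0.797 for Ifi27l2a against B cell-like cells. Parp12 passed against B cell-like cells with an adjusted p of 0.0142, and no fold is given because both knockout-labelled libraries of B cell-like cells held 0 of its UMIs.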

How the results depend on the processing

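Refits in macrophage-like cells covered 9 other settings and the 6 fits that left out 1 library. Over these together, every member kept its direction for radiation (32 of 32) and, apart from Samd9l, for genotype (31 of 32). Over all classes 15159 refits kept their side of the threshold, 599 lost and 443 gained a call. A change of direction without a call in either fit is counted among the 15159. With a call in the main fit or the refit 2 turned, both for radiation at Leiden resolution 0.5. These were Ifitm3 in T cell-like cells (0.82) and Ifi27l2a in macrophage-like minus monocyte-like cells (0.42). At that resolution the cluster led by Lyve1 and Ccl8 (4324 cells) was left unnamed, and the macrophage-like class held 6300 cells. Counts of members called that moved by over 1.5 times follow, radiation before genotype unless named, first for the larger classes and for sums over the 5 smaller classes and the macrophage-like clusters, then for each of these alone; the cause was not tested.

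DESeq2 called 2 and 1 members in B cell-like cells, 1 for genotype in endothelial-like cells, 17 and 5 over all kept cells, 15 and 2 as differences between classes, and 6 for genotype over the 5 smaller classes (cycling, NK, T, dendritic and fibroblast-like). With no filter on low counts these were 6 and 9 in monocyte-like, 4 and 5 in neutrophil-like, 3 and 7 in B cell-like and 11 and 8 in endothelial-like cells, 16 and 2 over all kept cells, 41 and 37 over the 5 smaller classes, 11 for genotype between classes and 6 for knockout-labelled against sham macrophage-like cells. With only the 4 libraries compared, genotype called 9 in macrophage-like and 1 in B cell-like cells and 38 over the macrophage-like clusters (25 with all libraries). It called 1 over the 5 smaller classes, while radiation called 2 there and 0 in endothelial-like cells. With at most 5% mitochondrial UMIs the counts were 15 and 2 in macrophage-like cells, 0 for genotype in monocyte-like cells, 1 for radiation in endothelial-like cells and 1 for knockout-labelled against sham macrophage-like cells. Keeping doublets gave 7 for genotype in monocyte-like cells and 6 over the 5 smaller classes. Clustering without interferon genes gave 17 for radiation between classes and 3 and 0 over the 5 smaller classes, and leaving out the cluster led by interferon genes gave 9 for radiation between classes. With the replicate number as a block, counts were 30 and 13 in macrophage-like cells, 5 for genotype in neutrophil-like cells, 3 and 6 in B cell-like cells and 0 for radiation in endothelial-like cells; the block moved no other count of these larger classes by over 1.5 times.

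Among the smaller classes, cycling cells had 19 and 14 calls with no filter, 2 and 0 with only the 4 libraries, 3 and 0 clustered without interferon genes and, for genotype, 4 by DESeq2, 2 with the block and 3 with doublets kept. T cell-like cells had 7 for radiation at Leiden resolution 0.5 and 2 and 5 with no filter. For genotype they had 1 by DESeq2, with the 4 libraries or with the block, and 0 with doublets kept or clustered without interferon genes. NK cell-like cells had 2 and 5 with no filter, 1 and 2 with doublets kept and 1 for genotype at the 5% limit. Dendritic cell-like cells had 4 and 3 with no filter, 1 and 3 at resolution 0.5 and, for genotype, 1 by DESeq2 or with doublets kept. Fibroblast-like cells had 14 and 10 with no filter and 1 and 1 with the block. Among the clusters, with no filter the Lilra5 one had 2 and 0, the Mmp12 one 19 and the Lyve1 one 13 for genotype, and the Cd209f one 3 for radiation. DESeq2 gave 8 for radiation in the Lilra5 and 7 for genotype in the Mmp12 cluster, and the 4 libraries gave 11 and 14 for genotype in the Lilra5 and Lyve1 clusters.

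Leaving out each library in turn gave 14 to 31 and 2 to 20 calls in macrophage-like cells, and 0 to 11 against sham. It gave 0 to 3 and 0 to 6 in monocyte-like, 0 and 0 to 5 in neutrophil-like, 0 to 4 and 0 to 7 in B cell-like, and 0 to 5 and 0 in endothelial-like cells. Over all kept cells each such fit gave 0. Between classes the range was 9 to 31 and 1 to 11, over the 5 smaller classes 0 to 22 and 0 to 18, and over the macrophage-like clusters 22 to 48 and 7 to 39. The 5% mitochondrial limit was not run in B cell-like, T cell-like, cycling and fibroblast-like cells, where a library fell under 20 cells, and resolution 0.5 gave no fibroblast-like class. Depth limits members with few UMIs: Ifi44 held 5 and 11 UMIs in sham macrophage-like cells.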
